A study of Mus musculus with 9 samples.

Results

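Among genes without a well known role in B cells, 7 with at least 20-fold more RNA in the marginal zone than in the follicular subset of the mouse spleen were examined, namely I830077J02Rik, Tsga13, Dnase1l3, Myof, Tbc1d9, Serpine2 and Zc3h12c. These 7 of the 24459 rows of the expression table were chosen by their mean level in marginal zone (MZ) B cells, 22.8 to 174 times that in follicular (FO) B cells, so the MZ to FO difference is given as a description and was not tested. The level that each gene reached in the remaining subset, BDL, was not used in choosing them, but the FO libraries, with which it is compared, were. BDL are splenic B cells sorted inside the FO gate by low or absent surface IgD. Their level of Dnase1l3 was 27.1% of that in MZ B cells, whereas that of Tsga13 was 0.663%, and the other 5 genes lay between 2.0% and 6.61%.

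In all, 9 RNA libraries were sequenced, 3 from each subset, and the sample titles carry 3 dates, each shared by 1 library of every subset. Spleens of 5 naive mice aged 8 to 10 weeks were pooled per sort, and whether the subsets of one date came from the same pool is not given. No mouse carried a mutation, transgene or treatment by the labels, which give the strain as C57/BL6, while the study's text names B10.PL mice for the sequencing. FO B cells were sorted as B220+ cells with intermediate CD21, with CD23, without CD93 and with high IgD. BDL passed the same gate with low or absent IgD, and MZ B cells were CD21 high and CD23 negative. The values are FPKM, fragment numbers scaled to transcript length and sequencing depth, which the authors computed with Cufflinks and which allow levels to be compared between genes of unlike length. In sorted but bulk samples, fewer cells of a type and less RNA per cell cannot be told apart.

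MZ B cells line the marginal sinus of the spleen, where blood-borne antigen first meets the tissue, and depend on Notch2 signalling. FO B cells recirculate through the follicles and form most of the splenic B cells. Dnase1l3 encodes a secreted nuclease that digests the DNA of chromatin, and its loss causes lupus-like disease in mice and humans. Serpine2 encodes protease nexin-1, a serpin that inhibits thrombin and urokinase. Myof encodes myoferlin, a calcium-binding ferlin of membrane repair and fusion. Tbc1d9 carries the TBC domain found in activators of Rab GTPases. Zc3h12c encodes a member of the regnase family of RNA-degrading zinc finger proteins. Tsga13 is named for its expression in testis, and I830077J02Rik is known by its clone name.

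The sequences just upstream of the annotated starts are shown for 5 of the genes, chosen because Myof, Tbc1d9 and Serpine2 had the most alike levels over the 9 libraries and because Dnase1l3 and Tsga13 stood at the upper and lower end in BDL. Each is the 250 bases before the 5′ end of the gene in GENCODE M1 on mouse build NCBIM37 (mm9), read 5′ to 3′ on the strand of the gene, and capitals mark matches to the motifs given after them. The start that B cells use was not measured.
Dnase1l3, chr14:8827088-8827337, minus strand: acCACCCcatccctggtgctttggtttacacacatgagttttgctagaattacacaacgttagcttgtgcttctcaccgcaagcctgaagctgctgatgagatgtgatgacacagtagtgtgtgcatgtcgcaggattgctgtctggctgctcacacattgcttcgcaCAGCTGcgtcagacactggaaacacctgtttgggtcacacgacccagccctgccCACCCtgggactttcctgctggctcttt
Tsga13, chr6:30865574-30865823, minus strand: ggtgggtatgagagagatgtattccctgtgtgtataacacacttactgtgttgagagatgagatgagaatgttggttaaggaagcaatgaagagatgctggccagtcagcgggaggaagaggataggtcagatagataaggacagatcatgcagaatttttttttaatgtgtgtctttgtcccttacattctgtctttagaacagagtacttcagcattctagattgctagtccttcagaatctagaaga
Myof, chr19:38118068-38118317, minus strand: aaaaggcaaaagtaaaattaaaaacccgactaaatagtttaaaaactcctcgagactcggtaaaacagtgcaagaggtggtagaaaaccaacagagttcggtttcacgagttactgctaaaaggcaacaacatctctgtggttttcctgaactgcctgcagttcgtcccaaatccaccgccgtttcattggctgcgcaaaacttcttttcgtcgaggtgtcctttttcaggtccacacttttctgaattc
Tbc1d9, chr8:85689001-85689250, plus strand: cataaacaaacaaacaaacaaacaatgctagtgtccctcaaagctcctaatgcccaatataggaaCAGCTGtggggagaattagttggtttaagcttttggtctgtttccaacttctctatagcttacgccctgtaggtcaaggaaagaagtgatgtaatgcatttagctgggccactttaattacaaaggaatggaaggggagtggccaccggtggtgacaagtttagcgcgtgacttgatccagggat
Serpine2, chr1:79855272-79855521, minus strand: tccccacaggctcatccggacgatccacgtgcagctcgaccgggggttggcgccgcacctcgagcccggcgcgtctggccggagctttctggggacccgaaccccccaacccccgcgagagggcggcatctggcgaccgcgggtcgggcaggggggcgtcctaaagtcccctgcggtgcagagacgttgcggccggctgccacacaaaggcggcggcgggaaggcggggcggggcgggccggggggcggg

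The 7 windows shared no base composition. That of Serpine2 held 76% G or C with 33 CpG and that of Zc3h12c 75.6% with 31 CpG, above the upper quartiles of 62.8% and 18 CpG over 22375 promoters of the same length. Those of Tsga13 and I830077J02Rik held 1 CpG each, below the lower quartile of 3 CpG. The motifs were searched on both strands, in windows where matches of unlike motifs could overlap. The core letters of the Notch effector RBPJ, TGGGAA, were in none of the 7 windows and in 21% of all promoters. The E-box CAGCTG was in those of Dnase1l3 and Tbc1d9 and in 11.8% of all promoters. The KLF box CACCC was in those of Dnase1l3, where it occurred at 2 places, and I830077J02Rik, against 52.3% of all promoters. The PU.1-IRF composite motif was in none of the 7 and in 2.51% of all promoters. A match of letters is a description only, and no binding was measured.

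The labels of the subsets were compared with their markers. Of 8 MZ markers, 7 were called higher in MZ B cells relative to FO, a call made for 5.54% of all 11597 rows tested, with 3.39% called lower, and the exception was Notch2. Of 7 FO markers, 6 were called lower in MZ B cells. In BDL over FO, 2 of the 8 MZ markers were called, Cd36 and Cd9, and no FO marker was by limma (3 with an unadjusted p under 0.05). Of markers of other states and cells, Cd93 and Myb (transitional B cells), Sdc1 (plasma cells), Lck (T cells), Hbb-b1 (red cells) and Emr1 (macrophages) were called higher in BDL than in FO, while Xbp1 and Irf4 of the plasma cell list differed by -0.19 and -0.42 on the log2 scale without a call. In MZ over FO, Prdm1 (2.89) and Mzb1 (1.59) of that list were called higher and Sdc1 (-2.57) lower. The part of these markers in the levels of the 7 genes was not tested. Cd3e, Cd3d and Cd3g, which define T cells, were at most 0.406, 0.797 and 0.607 FPKM in any library. Cd3d and Cd3g were highest in replicate 2 of every subset, and Cd3e in replicate 2 of BDL and MZ B cells. The granulocyte markers summed to 1.14 to 5.85 FPKM in FO, 0.722 to 5.62 in BDL and 1.14 to 6.24 in MZ B cells, and of the stromal and endothelial markers Pdgfra was at 0 in all libraries while Pecam1, which B cells also express, made up most of the sum of 43.4 to 75.3 FPKM. A gene was called when limma, fitted to log2(FPKM + 0.1) in all 9 libraries, gave a difference of 2-fold or more with a Benjamini-Hochberg adjusted p below 0.05. The median difference over all rows tested was 0.05 on the log2 scale for BDL over FO and -0.01 for MZ over FO.

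Dnase1l3 (chr14:8797047-8827087, minus strand, 8 exons in the longest transcript) was the gene on which BDL came nearest to MZ B cells. Its level was 0.875, 1.21 and 0.833 FPKM in the FO libraries of replicates 1 to 3. It was 6.72, 7.14 and 6.35 FPKM in BDL and 19.6, 33.0 and 21.8 FPKM in MZ B cells. The 3 subsets did not overlap, with BDL between the others. The mean was 0.972 ± 0.205 FPKM in FO, 6.73 ± 0.397 in BDL and 24.8 ± 7.20 in MZ B cells (SD, n = 3 each). BDL exceeded FO by 2.69 on the log2 scale (SE 0.204, 95% interval 2.22 to 3.16, limma adjusted p = 3.76e-04) and was below MZ by 1.83 (SE 0.204), a difference given as a description because high MZ levels chose the genes. The rise from FO to BDL covered 59.5% of the log2 step from FO to MZ. Macrophages and dendritic cells are known sources of this nuclease. Magnetic negative selection and a sort for B220 preceded sequencing, and how many such cells remained was not tested. The summed level of 13 macrophage and monocyte markers was 4.04 to 6.84 FPKM in FO and 7.30 to 9.14 in BDL, which lay above FO. It was 4.81 to 8.39 FPKM in MZ B cells. That sum includes Emr1, the only one of the 6 tested that was called in BDL over FO (0.802 to 3.48 FPKM). The other 5 tested differed by -0.15 (C1qa) to 0.50 (C1qb) on the log2 scale without a call. For the surface protein that Emr1 encodes, the paper's flow cytometry did not bear out an increase in BDL. The 3 markers C1qa, C1qb and C1qc each stayed between 0.370 and 1.07 FPKM in the 9 libraries, and Cd209b was at 0 in all BDL and MZ libraries. Lyz2 of the same list stood at 2.87, 2.43 and 3.25 FPKM in replicate 2 of FO, BDL and MZ. In the other libraries Lyz2 was between 0.656 and 0.964 FPKM. Dnase1l3 was also highest in replicate 2 of each subset. The 8 dendritic cell markers summed to 2.55 to 3.20, 2.17 to 3.43 and 3.25 to 4.50 FPKM in FO, BDL and MZ, so that MZ lay above FO. Neither of the 2 tested, Flt3 and Xcr1, was called by limma in BDL over FO (0 with an unadjusted p under 0.05) or in MZ over FO (0). Of those under the minimum mean, Itgax rose from 0.111 FPKM in FO to 0.582 in MZ, Siglech from 0.104 to 0.376 and Batf3 from 0 to 0.220. Zbtb46 and Clec9a were also higher in MZ than in FO, and Ccr9 was lower (0.268 against 0.325 FPKM). The part of these cells in the level of Dnase1l3 was not tested.

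Myof (chr19:37973526-38118067, minus strand, 54 exons) was more abundant in MZ B cells than any of the others except I830077J02Rik, with which its libraries overlapped. The FO libraries held 1.53, 1.81 and 1.61 FPKM, the BDL libraries 4.17, 4.23 and 4.11 FPKM, and the MZ libraries 59.9, 56.5 and 77.2 FPKM. Every BDL library was above every FO library and far below every MZ library. BDL replicates were the most alike of all the genes, with an SD of 0.0626 on a mean of 4.17 FPKM. The excess of BDL over FO was 1.29 on the log2 scale (SE 0.121, limma adjusted p = 9.44e-04), and BDL reached 6.46% of the MZ mean of 64.6 FPKM.

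Tbc1d9 (chr8:85689251-85796838, plus strand, 22 exons) held 0.503, 0.543 and 0.379 FPKM in FO, 1.27, 1.13 and 1.13 FPKM in BDL, and 17.1, 18.7 and 24.1 FPKM in MZ B cells. The subsets were again ordered FO, BDL, MZ with no overlap. The rise in BDL over FO was 1.16 (log2, SE 0.160, limma adjusted p = 0.00542), and BDL reached 5.89% of the MZ mean.

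Serpine2 (chr1:79790772-79855271, minus strand, 9 exons) had the lowest mean of the 7 in FO and in MZ B cells. It stood at 0.111, 0.125 and 0.0517 FPKM in FO, at 0.382, 0.382 and 0.330 FPKM in BDL and at 10.7, 10.0 and 16.1 FPKM in MZ B cells. All BDL values were above all FO values. The ratio of the means was 3.80, and on the log2(FPKM + 0.1) scale, which understates changes of low genes, BDL exceeded FO by 1.26 (SE 0.229, limma adjusted p = 0.0159). That call rested on few fragments, an estimated 6.82 to 15.8 per FO library, and Serpine2 passed the minimum mean only through its MZ libraries and was not tested in a fit of the FO and BDL libraries alone. It was lost without FO replicate 3 (limma adjusted p = 0.0565), without BDL replicate 1 (adjusted p = 0.0567) and without BDL replicate 2 (adjusted p = 0.0516), and over all its alternatives the limma adjusted p ran from 0.00982 to 0.247.

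I830077J02Rik (chr3:105728809-105735582, minus strand, 6 exons) reached the highest mean of the 7 in MZ B cells, 76.9 ± 8.76 FPKM (SD, n = 3). Its MZ libraries held 74.9, 69.4 and 86.6 FPKM, against 0.791, 0.459 and 0.463 FPKM in FO and 1.91, 1.40 and 1.31 FPKM in BDL. BDL lay above FO without overlap, yet reached 2.0% of the MZ mean. The difference of BDL from FO was 1.31 on the log2 scale (SE 0.211, limma adjusted p = 0.00971) and that from MZ was -5.56 (SE 0.211), given as a description.

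Zc3h12c (chr9:51920090-51976216, minus strand, 6 exons) had FO levels of 1.32, 1.60 and 1.57 FPKM, BDL levels of 2.26, 2.58 and 1.91 FPKM, and MZ levels of 28.4, 35.8 and 37.8 FPKM. All 3 BDL libraries were above the FO libraries, but the difference did not pass the test. It was 0.56 on the log2 scale (95% interval 0.22 to 0.90, limma adjusted p = 0.0585), with an exact permutation p of 0.1, the smallest that 3 against 3 libraries allow and also that of the 5 genes called. The upper end of the interval lay under the 2-fold required for a call.

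Tsga13 (chr6:30846981-30865573, minus strand, 8 exons) had the largest ratio of MZ to FO means, 174, although on the log2(FPKM + 0.1) scale its step of 6.57 was below the 6.87 of I830077J02Rik. No difference between BDL and FO was detectable at this depth. The FO libraries held 0.0846, 0.158 and 0.136 FPKM and the BDL libraries 0.0718, 0.241 and 0.125 FPKM, and these ranges overlapped. The MZ libraries held 23.7, 28.2 and 14.1 FPKM. BDL differed from FO by 0.08 on the log2 scale (95% interval -0.68 to 0.83, limma adjusted p = 0.908), on the log2(FPKM + 0.1) scale, where a change of so low a gene is understated. An estimated 5.77 to 10.3 fragments per FO library and 4.64 to 17.3 per BDL library stood behind these levels. BDL was below MZ by 6.49 on the log2 scale (SE 0.327), given as a description.

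**Figure D1:**
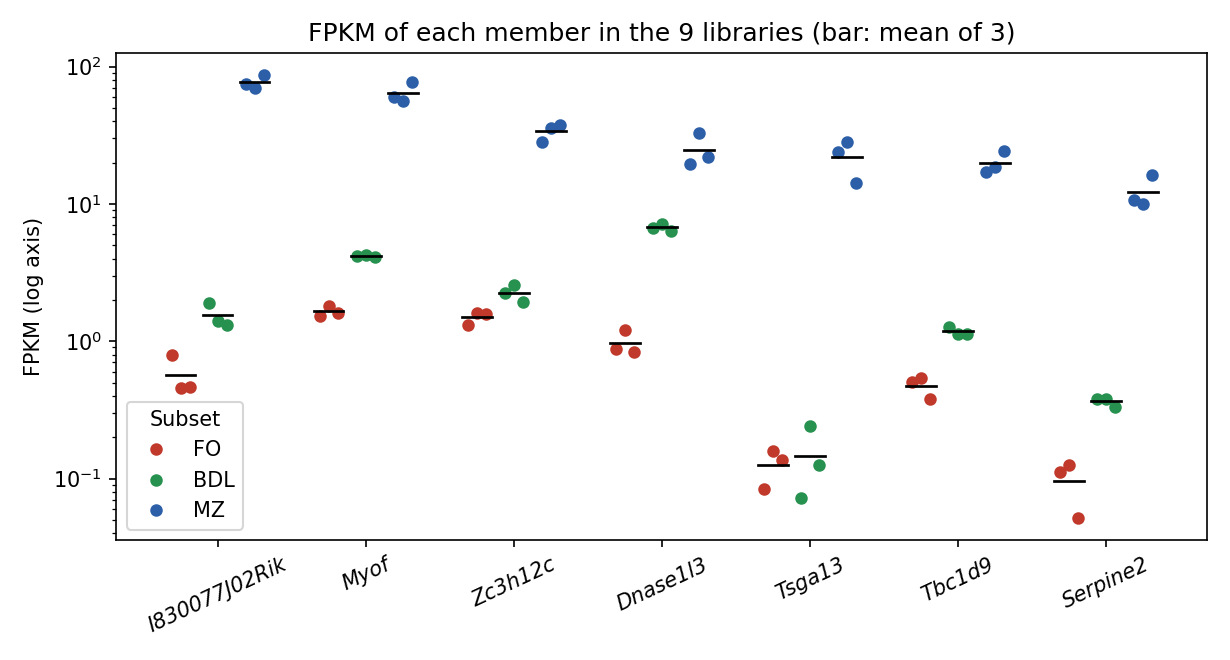
FPKM (vertical axis, logarithmic) of the 7 genes in each FO, BDL and MZ library; points are libraries and bars the means of 3. BDL sits between FO and MZ for 6 genes, nearest to MZ for Dnase1l3, and overlaps FO for Tsga13.

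Taking the 7 together, 5 were called higher in BDL than in FO, or 4 without Serpine2, where 1.64% of all rows tested were called higher and 0.267% lower. In 6 of the 7 every BDL library was above every FO library, as in 24.4% of all rows. All 7 were called lower in BDL than in MZ B cells, where 4.34% of all rows were, and none of the 7 overlapped between BDL and MZ, where 16.4% of rows had all BDL libraries lower. The FO libraries, and in the latter contrast the MZ libraries, also took part in choosing the genes, so these counts and the p-values of the single genes are not independent of the choice, and the counts against MZ are a description. All 7 passed the minimum mean of 0.5 FPKM over the 9 libraries, but Serpine2 and Tsga13 passed it only through their MZ level.

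**Figure D2:**
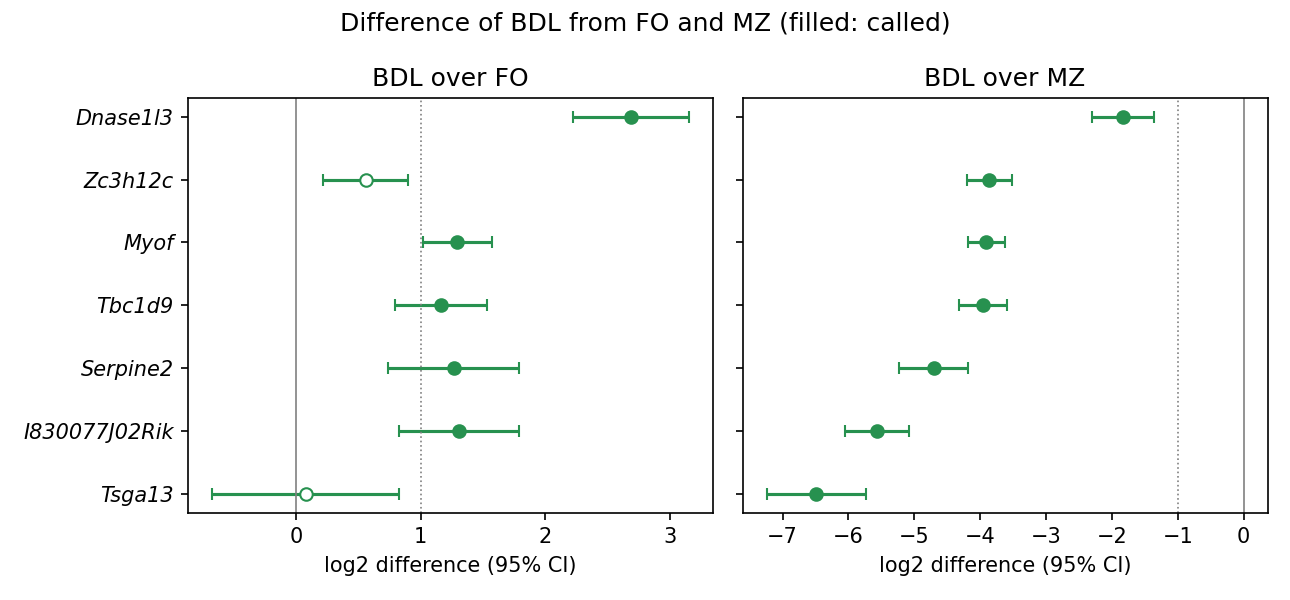
Difference of BDL from FO (left) and from MZ (right) on the log2(FPKM + 0.1) scale, with 95% intervals from limma; filled points were called, dotted lines mark 2-fold, and genes are ordered by the BDL level as a percent of MZ. Dnase1l3 differs most from FO (2.69) and least from MZ (-1.83), and the interval of Tsga13 over FO spans 0.

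The order of the genes was not the same in the 3 subsets. In MZ B cells I830077J02Rik and Myof led and overlapped each other, followed by Zc3h12c, Dnase1l3, Tsga13 and Tbc1d9, of which each overlapped the next, and by Serpine2 below them. In FO B cells Myof and Zc3h12c led and overlapped, Dnase1l3 came next, I830077J02Rik overlapped Tbc1d9, and Tsga13 overlapped Serpine2 at the bottom. In BDL no gene overlapped the next, in the order Dnase1l3, Myof, Zc3h12c, I830077J02Rik, Tbc1d9, Serpine2 and Tsga13. Dnase1l3 thus stood 4th in MZ B cells but 1st in BDL, and I830077J02Rik 1st in MZ B cells but 4th in BDL. In BDL and MZ B cells replicates differed most for Tsga13, whose SD was 59.3% of the mean in BDL and 32.5% in MZ B cells. In FO they differed most for Serpine2, at 40.5%, against 29.9% for Tsga13.

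The 7 genes were part of a larger set. With a mean of at least 1 FPKM in MZ B cells, 64 rows were at least 20 times higher in MZ than in FO, 4 of them microRNA rows, and 48 further rows were listed at 0 in all FO libraries and gave no ratio. Just inside the 20-fold line lay Hemt1 at 20.1, Cd59a at 20.8 and Rundc3b at 20.8, and just outside Tspan15 at 19.4, AW011738 at 19.1 and Ldlrad3 at 18.9. Without the microRNA rows and the 7 genes, 53 rows remained, whose median BDL level was 4.10% of MZ, compared with 5.89% for the 7. Of these 53, 47 passed the minimum mean and 15 of the 47 (31.9%) were called higher in BDL than in FO, against 1.64% of all rows. None was called lower by limma (0 lower with an unadjusted p under 0.05). A low FO level helped to choose these rows too, so that share is not independent of the choice and is a description. Among the 15, Bst1, Oosp2, Mt1, Nebl and Asb2 passed the minimum mean only through their MZ libraries. The median difference of BDL from FO was 0.42 on the log2 scale in the 47 rows and 1.26 in the 7 genes. The share reached by Dnase1l3, 27.1%, was close to the 26.5% of Alpl, the highest of the 53. By the difference of BDL from FO, Dnase1l3 ranked 2nd of the 54 rows tested, after Lipc (3.03, SE 0.191) and before Alpl (2.64, SE 0.155).

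**Figure D3:**
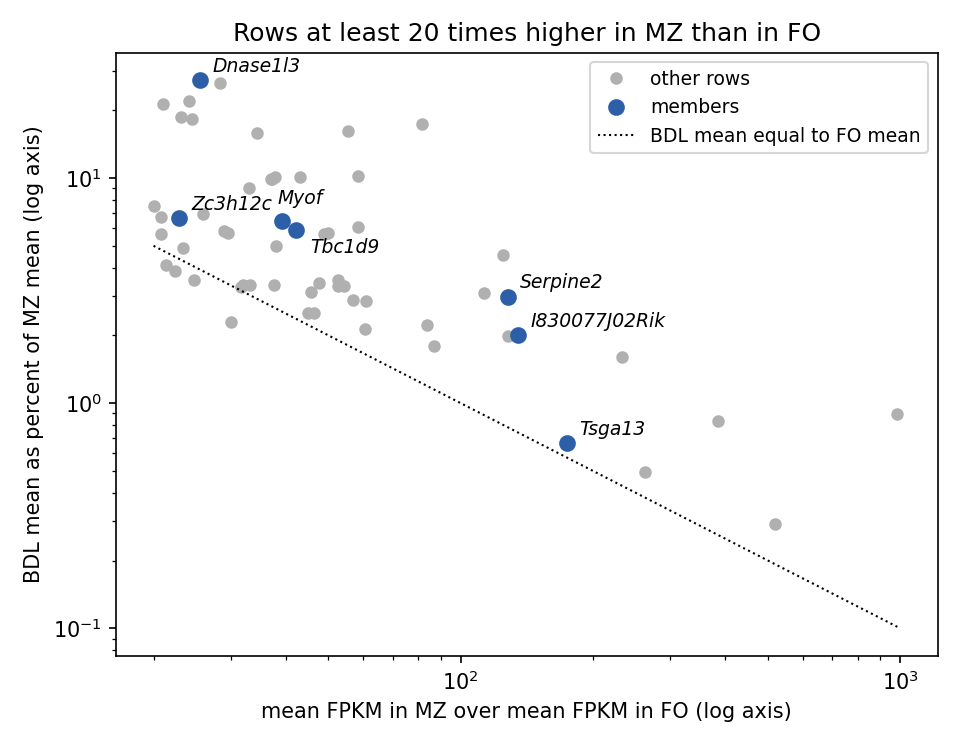
Mean BDL level as a percent of the mean MZ level against the ratio of mean MZ to mean FO FPKM, both axes logarithmic, for the 60 rows at least 20 times higher in MZ, with the 7 genes in blue; on the dotted line BDL equals FO. Dnase1l3 is at the top at 27.1% and Tsga13 lies close to the line at 0.663%.

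The likeness of the levels was described by Pearson's r of log2(FPKM + 0.1) over the 9 libraries, which share 3 subsets, so that any gene high only in MZ B cells has a high r. Among the 7, Serpine2 and Tbc1d9 were most alike (r = 0.999), and Myof had r = 0.998 with each. Dnase1l3 and Tsga13 were least alike (r = 0.808). Over all rows tested, the 3 rows most like Dnase1l3 were Alpl (tissue-nonspecific alkaline phosphatase, r = 0.995), Lipc (hepatic lipase, r = 0.990) and Elovl6 (a fatty acid elongase, r = 0.988). Those most like Myof were Pde4a (a cyclic AMP phosphodiesterase, r = 0.999), Ldlrad3 (r = 0.999) and Plau (urokinase, r = 0.998). Tbc1d9 was followed by Serpine2 (r = 0.999), Myof and Plau (r = 0.997), and Serpine2 by Tbc1d9, Asb2 (r = 0.998) and Myof. Those most like Zc3h12c were Asap2 (r = 0.997), Asb2 (r = 0.996) and Coro2b (r = 0.996). I830077J02Rik was most like Tmtc4 (r = 0.998), Atxn1 (r = 0.998) and A930005H10Rik (r = 0.997), and Tsga13 most like Adamdec1 (r = 0.995), Pik3r4 (r = 0.993) and AW011738 (r = 0.993). The BDL and FO means of these 3 rows were 0.0440 against 0.0268 FPKM for Adamdec1, 18.0 against 18.8 for Pik3r4 and 0.687 against 0.956 for AW011738.

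The relatives of the genes were described next, from lists of 85 genes of which 55 were tested. In MZ over FO, 5 of the 55 (9.09%) were called higher and 3 (5.45%) lower, against 5.54% and 3.39% of all rows, with a median of 0.04 on the log2 scale. In BDL over FO, 1 was higher (1.82%, against 1.64% of all rows), Serpinb6b (1.58 on the log2 scale, SE 0.123), and none was lower by limma (11 lower with an unadjusted p under 0.05). Among 9 tested genes of the serpin and plasminogen list, to which Serpine2 belongs, 4 were called higher in MZ than in FO. Plau, the protease that Serpine2 inhibits, rose from 0.0652 to 2.15 FPKM (3.77 on the log2 scale, SE 0.206). Plau passed the minimum mean only through its MZ libraries and was not among the genes called with a minimum of 1 FPKM. The counts of 4 and of 5 higher in MZ include it. Serpina3g, Serpinb6b and Serpinb9, an inhibitor of granzyme B, rose by 1.19 to 1.51. Serpinb1a, an inhibitor of neutrophil elastase, was lower by 1.46 in MZ than in FO.

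Among 28 tested TBC domain genes Tbc1d19 alone was called in MZ over FO (1.07 on the log2 scale, SE 0.160). Tbc1d9b, the paralog of Tbc1d9, did not pass the test, at 0.05 (95% interval -0.14 to 0.23). Among 8 tested DNA nucleases none was called higher in MZ with Dnase1l3 by limma (1 higher with an unadjusted p under 0.05), and Samhd1, a dNTP hydrolase, was lower by 1.48. Dnase1 differed by -0.95 (95% interval -1.74 to -0.16, limma adjusted p = 0.0779). Of the regnase and mRNA decay list, 10 were tested, and Zfp36l2, which promotes mRNA decay, was lower by 1.16. Zc3h12a gave -0.02 (interval -0.47 to 0.43), and Zc3h12d stood higher in MZ by 0.80 (SE 0.0818, limma adjusted p = 1.82e-04), under 2-fold. No other ferlin passed the minimum mean with Myof, and the 4 with a row summed to between 0.306 and 0.646 FPKM in every library.

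**Figure D4:**
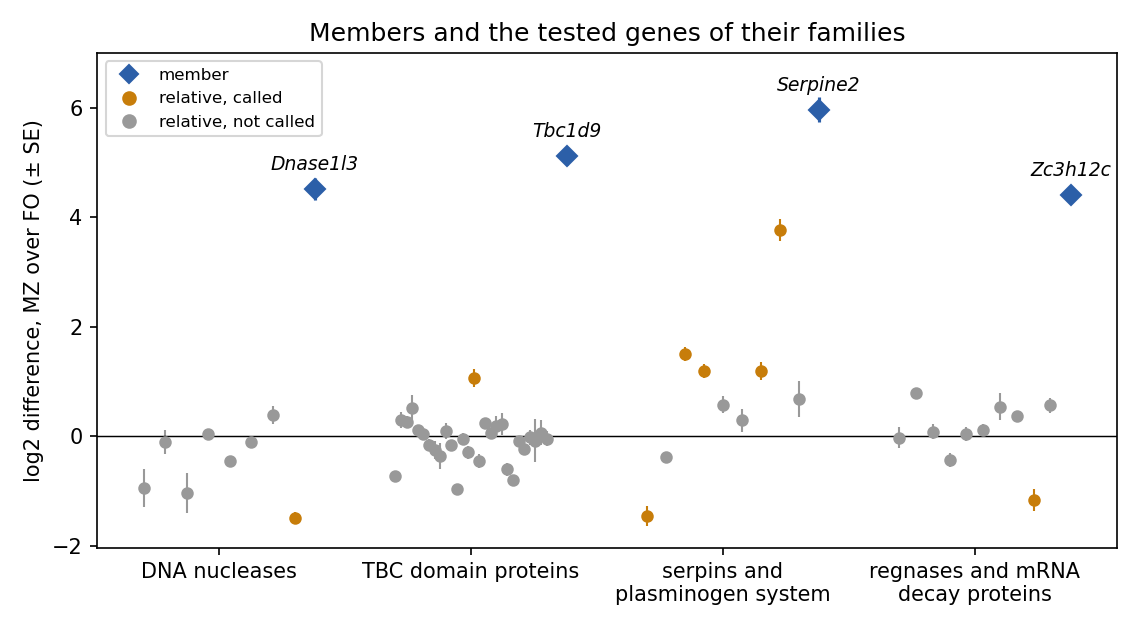
Difference of MZ from FO on the log2(FPKM + 0.1) scale, with SE, for the tested genes of 4 families (circles, orange where called) and for the gene of the set that belongs to each (diamonds). The diamonds lie between 4.42 and 5.97, and the highest relative is Plau at 3.77, which passed the minimum mean only through its MZ libraries.

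The genes next to the 7 in the genome were also examined, the 3 nearest with a row on each side, which gave 42 genes of which 24 were tested. Of these, 3 (12.5%) were called higher in MZ than in FO and 1 (4.17%) lower, against 5.54% and 3.39% of all rows, and the median was 0.06 on the log2 scale. Copg2, a subunit of the coatomer coat that begins 187 bases from Tsga13 and lies on the same strand, rose from 10.2 to 22.0 FPKM (1.10 on the log2 scale, SE 0.104). Abhd6, a monoacylglycerol lipase 8329 bases from Dnase1l3, rose from 2.81 to 6.05 FPKM (1.09, SE 0.0972). Pxk, 103638 bases from Dnase1l3, was lower in MZ, at 68.7 against 150.4 FPKM. Fdx1, a ferredoxin of steroid synthesis 148429 bases from Zc3h12c, rose from 3.62 to 7.82 FPKM (1.08, SE 0.167). The 3 rises were each between 1.08 and 1.10, compared with 4.42 to 6.87 for the 7 genes. Beside them, 2 neighbours are named after their values were seen. Il15, a cytokine gene 762130 bases from Tbc1d9, stood at 0.150 FPKM in FO and 0.918 in MZ B cells, under the minimum mean. With no minimum it was called higher in MZ (2.01 on the log2 scale, SE 0.166). It was called in all 7 alternatives in which it was tested, but except with no minimum it entered them only through its MZ level. No alternative that left out an MZ library tested it. Ovgp1, 41047 bases from I830077J02Rik, differed by -1.86 (95% interval -3.50 to -0.21, limma adjusted p = 0.0937). In BDL over FO none of the 24 neighbours was called by limma (9 with an unadjusted p under 0.05). There are 2 annotated genes that overlap members of the set on the opposite strand, 4930412F09Rik with Tsga13 and Gm10645 with Tbc1d9, and neither has a row. The labels call the libraries not strand specific while the study's methods name a stranded kit, so reads of such pairs may not have been told apart.

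**Figure D5:**
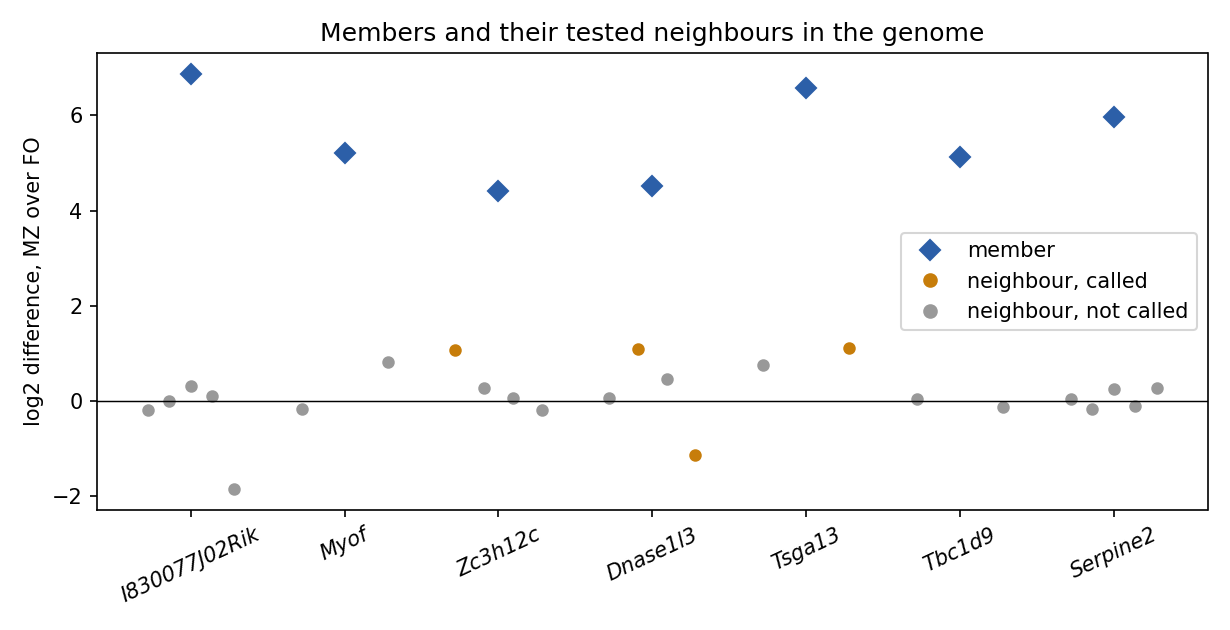
Difference of MZ from FO on the log2(FPKM + 0.1) scale for each of the 7 genes (diamonds) and its tested neighbours (circles in order along the chromosome, orange where called). No neighbour tested exceeds 1.10, and the diamonds lie between 4.42 and 6.87.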

How the data were processed

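RNA from 9 sorted pools was sequenced, 3 for each of FO, BDL and MZ B cells. Reads were mapped by the authors with TopHat2 2.1.0 to build mm9, and the deposited values are FPKM from Cufflinks, 1 per gene and library; the annotation is not given in the sources used here. A second deposited table holds the authors' Cuffdiff comparisons and was not used. Groups came from the sample labels.

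FPKM were converted to log2(FPKM + 0.1). Rows averaging 0.5 FPKM or more, 11597 in all, entered a limma 3.58.1 fit (R 4.3.3, eBayes with a trend) that had the subset as its term, followed by Benjamini-Hochberg adjustment over these rows. No pair of libraries was identical. P-values measure the spread between 3 sorts per subset.

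The columns summed to 446033 to 517208 FPKM, and 7634 to 8599 rows per library were at 0. Depth was inferred from how low values step up. One fragment on a transcript of 1 kb was worth 0.0137 to 0.0186 FPKM. Between 65.2% and 73.4% of the values checked were whole fragment numbers to within 0.1, where 20% would be by chance at a depth fixed beforehand. The depth with the highest such share in a set range was kept, which raises the share expected by chance. A whole multiple of that depth could fit too, so fragment numbers are approximate.

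The 7 genes and all lists were chosen with earlier results of these data known. The text names the 7 genes, called genes of their families and neighbours with the closest relatives, the 3 rows most like each gene, the 3 rows on each side of the 20-fold line, and markers of cell types. Lipc, Alpl, Bst1, Oosp2, Mt1, Nebl, Il15, Ovgp1 and single markers are also named, after their values were seen. GENCODE M1 on NCBIM37 gave positions, transcript lengths and promoters, and had a gene for 87.3% of the symbols. Sample titles carry the same 3 dates in each subset. Libraries of one date deviated from their subset means with a correlation of -0.062 to 0.244 across genes. The study's methods name no such term, so date was a block in an alternative only.

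Also tried were adding 0.01 or 1, requiring a mean of 1 FPKM or no mean, fitting only the 6 libraries compared, upper quartile scaling, quantile normalization, robust eBayes, an adjusted p without a fold minimum, and each library left out in turn. Python 3.11.15 with matplotlib 3.10.9 drew the figures.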

Additional observations from a re-analysis of the deposited data

How the results depend on the processing

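All 7 genes were called lower in BDL than in MZ B cells under every alternative run, which is a description because high MZ levels chose the genes. Dnase1l3 was called higher in BDL than in FO in each alternative. With 1 in place of 0.1 added to FPKM, 1 of the 7 was called higher in BDL than in FO, against 5, and 78 of all rows against 190, because a larger addition shrinks the differences of low rows. Leaving out 1 library gave 4 to 5 of the 7, and quantile normalization and the 6 libraries of FO and BDL gave 4, each time without Serpine2. In the 6 libraries, Serpine2 and Tsga13 fell under the minimum mean and were not tested. The difference of Tsga13 between BDL and FO turned from 0.08 to -0.06 without FO replicate 1 and to -0.19 without BDL replicate 2 (limma adjusted p of 0.949 and 0.715), within a range of -0.19 to 0.31 when 1 library was left out. Zc3h12c was not called under any alternative, with adjusted p from 0.0291 to 0.195 by limma. An adjusted p without a fold minimum gave 701 rows higher in BDL than in FO, 1346 rows lower in BDL than in MZ, 20 relatives and 8 neighbours called in MZ over FO, and 2 relatives in BDL over FO. Adding 0.01 also gave 2 relatives, Plau and Serpinb6b, of which Plau passed the minimum mean only through its MZ libraries. With the replicate block by date, 5 of the 7 were called higher in BDL than in FO and 7 lower than in MZ, and 2 relatives were called in BDL over FO, Plaur and Serpinb6b; it changed the call of none of the 7 genes.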
